A study of Homo sapiens with 9 samples.

Results

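The genes described here encode kinases that promote or restrain mitotic entry, act on chromosome attachment and its checkpoint, or work on centrosomes or centrioles. They are CDK1, PKMYT1, PLK1, AURKA, NEK2, AURKB, BUB1, BUB1B, TTK and PLK4. They were chosen by gene symbol, with earlier results of these data known, and make up 10 of the 58735 genes in the deposited count table. All 10 passed the filter on low counts, which kept 15232 genes. Their levels were compared by RNA sequencing in HEYA8 cells, an established human ovarian cancer line, labelled as high-grade serous and as WT (wild type).

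Every culture was grown in DMEM with fetal bovine serum and antibiotics and harvested after 24 h of treatment. The control group received DMSO, the solvent, in a volume equal to that of sunitinib. The second group received sunitinib, a drug that blocks a range of receptor tyrosine kinases. The third received compound 32, which is known here only by that code. Each group had 3 libraries, and all 9 carry the same day as their batch. Neither the doses nor what compound 32 has to do with sunitinib is stated in the labels. The series' text calls the DMSO and sunitinib samples biological replicates and does not say this of compound 32, so p-values measure the spread between these libraries, which may be technical in part. All 9 libraries come from this single line.

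Mitotic entry is a switch. CDK1 bound to cyclin B is held inactive by the inhibitory kinases PKMYT1 and WEE1 and released by CDC25 phosphatases, and PLK1 and AURKA help to tip the balance at the centrosome. Once chromosomes have condensed, AURKB corrects faulty attachments, while BUB1, BUB1B and TTK build the checkpoint signal that restrains the anaphase-promoting complex. NEK2 separates the centrosomes and PLK4 licenses centriole duplication. Transcripts of most of these kinases rise and fall with the cell cycle in dividing cells, peaking late in it. Many of their promoters carry a cell cycle genes homology region (CHR), a short element that is bound through LIN54 in the DREAM and MYBL2-containing complexes and often lies near CCAAT boxes.

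Promoter windows from RefSeq on GRCh38.p14, reaching from 250 bases before a start to 50 after it, were matched to 7 of the 10 kinases and gave 11 windows. AURKA, TTK and PKMYT1 were not among the 7. Both strands were searched for 3 kinds of motif, and no match in these windows overlapped a match of another kind. The CHR was read as TTTGAA or as its variant TTCGAA. The letters of the box bound by NF-Y were CCAAT. An E2F match was TTCCCGC or the form TTGGCGC. A CHR match was in a window of 5 of the 7 kinases (BUB1, BUB1B, CDK1, PLK1 and PLK4), against 19.5% of the 27305 genes with a window. CCAAT was in windows of 6 of the 7, against 39.7% of genes. An E2F match was in windows of CDK1 and PLK4, against 11% of genes. CHR and CCAAT stood in the same window for BUB1, CDK1 and PLK1, against 7.85% of genes. A match is a description of letters and not evidence of a bound site.

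A CHR match on the strand of the gene is shown for PLK1, BUB1B, CDK1 and BUB1, because each carries a form of this motif and their levels after compound 32 ran from 25.2% of DMSO (PLK1) to 125% (CDK1, which was not called). The letters are TTTGAA in PLK1, BUB1B and CDK1, whereas BUB1 has the variant TTCGAA. CDK1 has 3 other matches in its windows, including one at position 10 on the opposite strand. The PLK4 match, at position 39 on the opposite strand, lies too near the end of its window for a stretch of this length and is not shown. Each is 30 bases, 5′ to 3′ on the strand of the gene, with the CHR letters in capitals. The PLK1 match is at chr16:23678848-23678877 on the plus strand, that of BUB1B at chr15:40161034-40161063 on the plus strand, that of CDK1 at chr10:60778453-60778482 on the plus strand and that of BUB1 at chr2:110678045-110678074 on the minus strand. Their first capital lies 29, 23 and 13 bases before the RefSeq start for PLK1, BUB1B and CDK1, and at position 2 for BUB1. Each of these matches nevertheless starts in an annotated exon, and the RefSeq start used lies inside the annotated span of each gene.
PLK1: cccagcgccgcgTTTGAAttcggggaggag
BUB1B: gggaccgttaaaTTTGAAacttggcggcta
CDK1: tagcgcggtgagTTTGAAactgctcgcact
BUB1: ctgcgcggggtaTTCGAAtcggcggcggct

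The CDK1 and NEK2 stretches below lie upstream of their annotated exons and are shown because CDK1 lay above and NEK2 below its DMSO level after compound 32. The CDK1 stretch is the 250 bases at chr10:60778081-60778330 on the plus strand. The NEK2 stretch is 131 bases at chr1:211675631-211675761 on the minus strand. Capitals mark, in order along CDK1, a CHR match, a CCAAT box and an E2F match. Along NEK2 they mark a pair of CCAAT boxes, and its window holds no CHR letters.
CDK1: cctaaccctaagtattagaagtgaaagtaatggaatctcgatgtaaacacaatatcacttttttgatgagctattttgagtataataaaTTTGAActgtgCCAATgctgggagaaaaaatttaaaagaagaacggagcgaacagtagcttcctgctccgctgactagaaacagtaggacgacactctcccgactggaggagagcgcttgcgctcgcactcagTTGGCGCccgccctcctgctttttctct
NEK2: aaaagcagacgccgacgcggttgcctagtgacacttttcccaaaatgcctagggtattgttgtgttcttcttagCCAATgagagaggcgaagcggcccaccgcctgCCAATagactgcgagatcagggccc

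Library totals ran from 15498101 to 18006171 counts, and the smallest value of a kinase in any library was 133 counts. The third sunitinib library stood apart: 6.96% of its counts came from ribosomal protein genes, against 3.71% to 4.52% in the other 8 libraries, and 5.36% from mitochondrial genes, against 3.42% to 3.92%. Its Pearson correlation of log2 CPM (CPM being counts scaled to the size of the library) with the other sunitinib libraries was 0.9815 and 0.9811, against 0.9915 to 0.9932 for all other replicate pairs. Of 12 serous carcinoma markers, 7 were above 1 CPM in DMSO, among them PAX8 at 132 CPM and KRT8 at 695 CPM. MUC16, CDH1, FOLR1, ESR1 and MSLN were below 1 CPM there. Of 8 mesenchymal and fibroblast markers, 4 were above 1 CPM in DMSO, with VIM highest at 3631 CPM. DCN, LUM, PDGFRA and PDGFRB were below 1 CPM there. The sum of 6 immune markers was at most 1.17 CPM in any library. The sum of 4 endothelial markers, most of it CDH5, was 8.11 to 10.9 CPM in DMSO, 14.5 to 18.1 CPM in sunitinib and 5.80 to 6.59 CPM in compound 32 libraries, and its part in the results was not tested.

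All 10 kinases fell after sunitinib, while compound 32 split them. After compound 32, 8 kinases fell, PKMYT1 rose and CDK1 did not pass the test. Genes are called here at an edgeR adjusted p under 0.05 over all 15232 genes. The 10 lower calls after sunitinib stand against a background of 19.9% of genes lower and 20.3% higher, or 40.2% called in all. The 8 lower calls and 1 higher call after compound 32 stand against 10.3% lower and 12% higher, or 22.3% called in all. The median log2 difference of the 10 was -1.05 after sunitinib, where the median of all genes was 0.02, and -0.57 after compound 32, where it was 0.00. Together the 10 took a share of all counts of 0.0990% to 0.103% in DMSO, 0.0498% to 0.0538% in sunitinib and 0.0625% to 0.0635% in compound 32 libraries. In bulk RNA, fewer cells in G2 or mitosis and less RNA per cell cannot be told apart.

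For each of the 10 kinases, the sunitinib libraries did not overlap the DMSO libraries, and neither did the compound 32 libraries, against 50.8% and 49.1% of all genes. Leaving out the third sunitinib library left all 10 kinases lower after sunitinib. Without that library 6548 genes instead of 3401 were called for compound 32 against DMSO, and CDK1 joined the higher kinases. With upper-quartile scaling, 63.1% of the genes called after sunitinib were higher instead of 50.4%. Both comparisons share the DMSO libraries, so the values of each are given side by side.

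**Figure D1:**
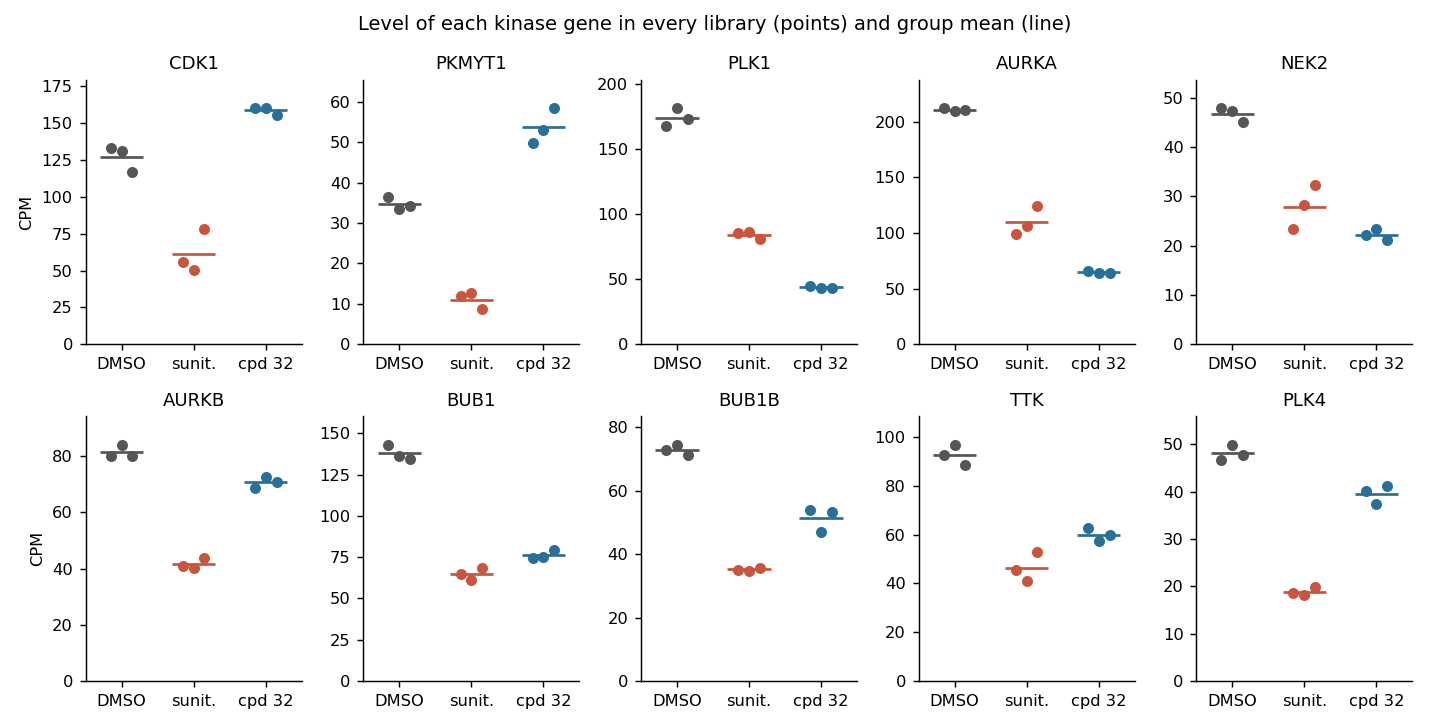
Level of each kinase gene in CPM (counts scaled to library size, vertical axis from 0) in each of the 9 libraries, as points by treatment, with a line at the group mean of 3 libraries. All sunitinib points lie below the DMSO points, while the compound 32 points lie above DMSO for CDK1 and PKMYT1 and below it for the other 8 kinases.

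The entry switch, CDK1 and its inhibitory kinase PKMYT1, fell after sunitinib and had its highest levels after compound 32. CDK1 (ENSG00000170312, chr10:60778331-60794852, plus strand on GRCh38) had 133, 131 and 117 CPM in the DMSO libraries, 55.6, 50.4 and 77.9 CPM in the sunitinib libraries and 160.3, 160.3 and 156 CPM in the compound 32 libraries. The 3 groups did not overlap, and the third sunitinib library was the highest of its group. CDK1 was lower after sunitinib by a log2 difference of -1.05 ± 0.13 (SE, edgeR adjusted p = 8.82e-05). The log2 difference after compound 32 was 0.32 ± 0.13 (edgeR adjusted p = 0.0975), with a 95% interval from 0.04 to 0.60, and it did not pass the test. Without the third sunitinib library it did (log2 difference 0.32, edgeR adjusted p = 5.21e-08), and the difference after sunitinib became -1.26.

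PKMYT1 (ENSG00000127564, chr16:2968024-2980539, minus strand) phosphorylates CDK1 at the membrane and keeps it off. Its levels were 36.5, 33.4 and 34.2 CPM in DMSO, 11.9, 12.6 and 8.65 CPM in sunitinib and 49.9, 53.0 and 58.5 CPM in compound 32 libraries. Here too the 3 groups did not overlap, and the third sunitinib library was the lowest value of all. PKMYT1 fell to 32.0% of the DMSO level after sunitinib (log2 difference -1.64 ± 0.12, edgeR adjusted p = 2.07e-06), the largest fall of the 10 kinases in that comparison. It rose after compound 32 to 155% of it (log2 difference 0.63 ± 0.11, edgeR adjusted p = 0.00230). PKMYT1 was the only kinase of the 10 that was called in opposite directions by the comparisons with DMSO, joined by CDK1 when the third sunitinib library was left out.

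Reads of PKMYT1 can be shared with a neighbour. Of its 5034 exon bases, 1233 are also exon bases of PAQR4 on the opposite strand and 360 are exon bases of KREMEN2. No source used here says whether the counting used strand, so reads from these bases cannot be told apart. PAQR4 moved in the same directions, with a log2 difference of -0.89 ± 0.15 after sunitinib (edgeR adjusted p = 6.79e-04) and 0.60 ± 0.14 after compound 32 (edgeR adjusted p = 0.00973). PAQR4 averaged 205, 118 and 314 counts in DMSO, sunitinib and compound 32 libraries. PKMYT1 had 532 to 563, 133 to 225 and 772 to 979 counts in the same groups. KREMEN2 had at most 45 counts in a library. The genes that overlap PLK1, AC008870.3 and ERN2, had at most 7 and 8 counts, and the pseudogene AURKAP1 at most 6.

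PLK1, AURKA and NEK2, which act at the centrosome and spindle pole as cells enter mitosis, had their lowest levels after compound 32. PLK1 (ENSG00000166851, chr16:23677656-23690367, plus strand) activates the CDC25 phosphatases and matures the centrosome. It was measured at 168, 181 and 173 CPM in DMSO, 85.1, 86.1 and 81.0 CPM in sunitinib and 44.9, 43.4 and 43.2 CPM in compound 32 libraries. The groups were far apart relative to their spread, and compound 32 brought PLK1 to 25.2% of the DMSO level (log2 difference -1.99 ± 0.06, edgeR adjusted p = 1.22e-08). By p-value, PLK1 ranked 2 among all genes tested for compound 32 against DMSO. After sunitinib it was at 48.3% of DMSO (log2 difference -1.05 ± 0.06, edgeR adjusted p = 3.18e-07).

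AURKA (ENSG00000087586, chr20:56369389-56392337, minus strand) activates PLK1 and builds the spindle poles. Its DMSO libraries were close together at 212, 209 and 211 CPM. The sunitinib libraries had 98.9, 106 and 124 CPM, the third being the highest, and the compound 32 libraries had 66.1, 64.3 and 64.2 CPM. No groups overlapped. The log2 difference was -0.94 ± 0.08 after sunitinib (edgeR adjusted p = 4.46e-06) and -1.70 ± 0.08 after compound 32 (edgeR adjusted p = 1.65e-07).

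NEK2 (ENSG00000117650, chr1:211658657-211675630, minus strand) dissolves the linker that ties the centrosomes together. It stood at 47.9, 47.3 and 45.0 CPM in DMSO, 23.3, 28.2 and 32.2 CPM in sunitinib and 22.2, 23.3 and 21.2 CPM in compound 32 libraries. The second compound 32 library and the first sunitinib library differed by less than 0.01 CPM. NEK2 was the kinase that fell least after sunitinib, with a log2 difference of -0.75 ± 0.11 (edgeR adjusted p = 2.07e-04). After compound 32 the log2 difference was -1.07 ± 0.11 (edgeR adjusted p = 4.00e-05).

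AURKB, the kinase of the chromosomal passenger complex, fell after sunitinib and stayed nearer to its DMSO level after compound 32. AURKB (ENSG00000178999, chr17:8204733-8210600, minus strand) had 80.2, 84.1 and 80.1 CPM in DMSO, 40.8, 40.2 and 43.8 CPM in sunitinib and 68.7, 72.7 and 70.6 CPM in compound 32 libraries. The log2 difference after sunitinib was -0.97 ± 0.06 (edgeR adjusted p = 8.13e-07). After compound 32 it was -0.20 ± 0.06 (edgeR adjusted p = 0.0386), a small fall that remained at 86.8% of DMSO. That call was lost when any 1 of the 6 libraries compared was left out, with adjusted p from 0.0751 to 0.133.

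The spindle checkpoint kinases BUB1, BUB1B and TTK fell after both treatments, and less after compound 32 than after sunitinib. BUB1 (ENSG00000169679, chr2:110637698-110678114, minus strand) recruits checkpoint proteins to kinetochores. It was present at 143, 136 and 135 CPM in DMSO, 64.7, 61.0 and 68.2 CPM in sunitinib and 74.5, 75.3 and 79.3 CPM in compound 32 libraries. Its log2 difference was -1.09 ± 0.07 after sunitinib (edgeR adjusted p = 4.02e-07) and -0.85 ± 0.07 after compound 32 (edgeR adjusted p = 5.53e-06). The groups did not overlap, and the treated groups lay closer to each other than to DMSO.

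BUB1B (ENSG00000156970, chr15:40161023-40221136, plus strand) encodes BUBR1, a part of the mitotic checkpoint complex that binds CDC20. Its values were 73.0, 74.5 and 71.1 CPM in DMSO, 35.1, 34.6 and 35.8 CPM in sunitinib and 54.0, 46.9 and 53.2 CPM in compound 32 libraries. The compound 32 group lay between the others, and its second library was its lowest. The log2 difference was -1.05 ± 0.07 after sunitinib (edgeR adjusted p = 9.46e-07) and -0.50 ± 0.07 after compound 32 (edgeR adjusted p = 4.63e-04).

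TTK (ENSG00000112742, chr6:80003887-80042527, plus strand), also called MPS1, starts the checkpoint signal at unattached kinetochores. It was at 93.0, 96.9 and 88.8 CPM in DMSO, 45.5, 40.9 and 52.7 CPM in sunitinib and 62.8, 57.5 and 59.9 CPM in compound 32 libraries. The order of the groups was that of BUB1B, again without overlap. The log2 difference was -1.003 ± 0.09 after sunitinib (edgeR adjusted p = 7.45e-06) and -0.63 ± 0.09 after compound 32 (edgeR adjusted p = 4.92e-04).

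PLK4 (ENSG00000142731, chr4:127880861-127899195, plus strand), the kinase of centriole duplication, was a relative of PLK1 that did not share its pattern. It had 46.6, 49.9 and 47.7 CPM in DMSO, 18.5, 18.2 and 19.8 CPM in sunitinib and 40.1, 37.4 and 41.2 CPM in compound 32 libraries. Sunitinib brought PLK4 to 39.1% of DMSO (log2 difference -1.35 ± 0.08, edgeR adjusted p = 2.42e-07), the second largest fall of the 10. Compound 32 left it at 82.4% (log2 difference -0.28 ± 0.07, edgeR adjusted p = 0.0171). This call was lost without the second DMSO library (edgeR adjusted p = 0.0718), the third DMSO library (0.0527) or the second compound 32 library (0.0795).

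**Figure D2:**
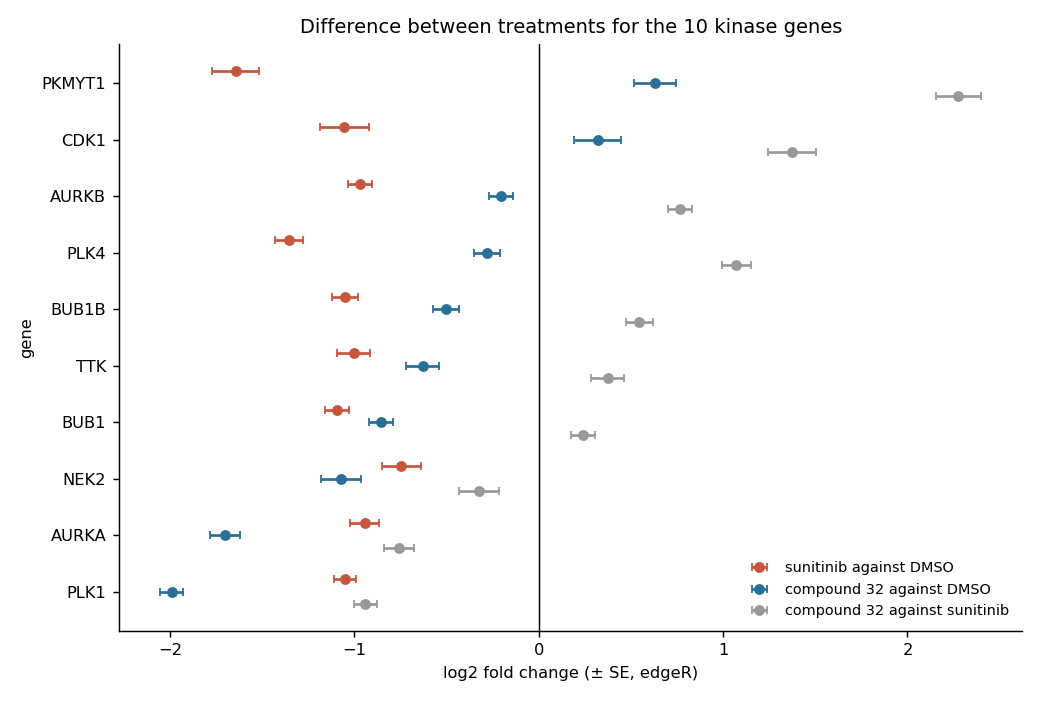
Log2 fold change with its standard error from edgeR (horizontal axis) for the 10 kinases (vertical axis) in the 3 comparisons between treatments, with 3 libraries in each group. The sunitinib points lie between -1.64 and -0.75, whereas those of compound 32 against DMSO spread from -1.99 for PLK1 to 0.63 for PKMYT1.

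Compound 32 and sunitinib were then compared directly, at the same 24 h but at doses that are not given. This comparison called 7 of the 10 kinases higher and 3 lower after compound 32, against 24.1% of all genes higher, 25.2% lower and 49.2% called in all. All 10 had groups that did not overlap, against 56.9% of genes. The 3 lower kinases were PLK1, AURKA and NEK2, while PLK4, the kinase of centriole duplication, was among the higher ones. PLK1 was lower by a log2 difference of -0.94 ± 0.06 (edgeR adjusted p = 3.86e-07) and AURKA by -0.76 ± 0.08 (edgeR adjusted p = 1.56e-05). NEK2 was lower by -0.33 ± 0.11 (edgeR adjusted p = 0.0265), a call lost without the second sunitinib library (0.0570), the first compound 32 library (0.0735) or the third compound 32 library (0.0992). Without the third sunitinib library its difference was -0.21 (edgeR adjusted p = 0.0367).

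The 7 higher kinases covered a range from the checkpoint to the entry switch. PKMYT1 was 4.85-fold higher after compound 32 than after sunitinib (log2 difference 2.28 ± 0.12, edgeR adjusted p = 8.27e-08) and CDK1 was 2.59-fold higher (1.37 ± 0.13, edgeR adjusted p = 7.32e-06). PLK4 was 2.10-fold higher (1.07 ± 0.08, edgeR adjusted p = 6.50e-07) and AURKB 1.70-fold (0.76 ± 0.07, edgeR adjusted p = 2.74e-06). The checkpoint kinases differed less. Their log2 differences were 0.55 ± 0.07 for BUB1B (edgeR adjusted p = 8.20e-05), 0.37 ± 0.09 for TTK (edgeR adjusted p = 0.00494) and 0.24 ± 0.07 for BUB1 (edgeR adjusted p = 0.00996). With upper-quartile scaling the BUB1 difference became 0.15 (edgeR adjusted p = 0.0694) and was no longer called. Under that scaling 39.0% of all genes called in this comparison were higher, instead of 48.9%.

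Levels of different genes were compared as CPM per kilobase of deposited gene length. In DMSO, AURKA led at 72.0 ± 0.457 CPM per kilobase (SD, n = 3). PLK1 (36.6 ± 1.46) and AURKB (36.3 ± 1.01) followed and overlapped each other. Next came CDK1 at 32.3 ± 2.27, BUB1 at 22.9 ± 0.743, TTK at 20.3 ± 0.887, BUB1B at 16.3 ± 0.379, NEK2 at 15.1 ± 0.498, PLK4 at 10.7 ± 0.375 and PKMYT1 at 6.90 ± 0.322, with no overlap between neighbours. By this measure AURKA was highest and the CDK1 inhibitor PKMYT1 lowest. For PKMYT1 and PLK1 the deposited lengths, 5034 and 4760 bases, equal all their annotated exon bases. The order between genes can therefore depend on the annotation as well as on the RNA, which was not tested.

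After sunitinib this ladder was lower and kept its ends. AURKA was highest at 37.5 ± 4.44 CPM per kilobase and PLK4 (4.20 ± 0.184) and PKMYT1 (2.20 ± 0.423) were lowest. AURKB, PLK1 and CDK1 overlapped at 18.6 ± 0.865, 17.7 ± 0.568 and 15.6 ± 3.71, and BUB1, TTK and NEK2 overlapped at 10.7 ± 0.597, 10.1 ± 1.301 and 9.02 ± 1.43. BUB1B at 7.86 ± 0.130 lay within the range of NEK2.

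After compound 32 the order was different. CDK1 had the highest level at 40.4 ± 0.703 CPM per kilobase, followed without overlap by AURKB at 31.5 ± 0.877 and AURKA at 22.2 ± 0.377. TTK (13.1 ± 0.575) overlapped BUB1 (12.7 ± 0.427), and BUB1B (11.5 ± 0.863) overlapped PKMYT1 (10.7 ± 0.865). PLK1, which shared the second place in DMSO, was at 9.21 ± 0.189 and overlapped PLK4 at 8.83 ± 0.446. NEK2 was lowest at 7.18 ± 0.353.

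**Figure D3:**
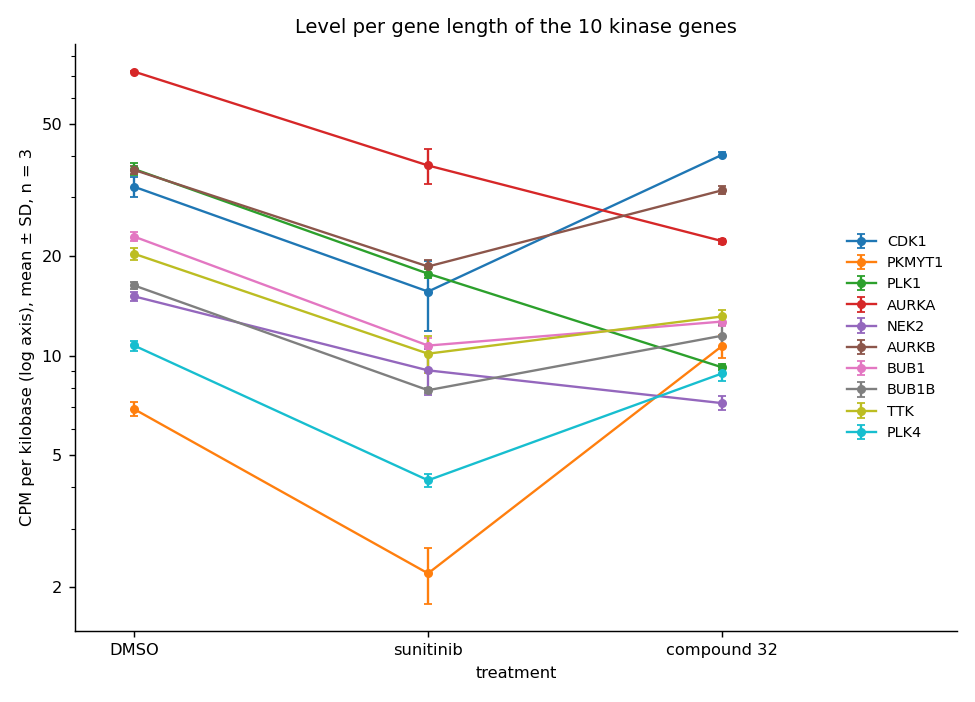
Mean CPM per kilobase with its SD over 3 libraries (vertical log axis) of the 10 kinases in each treatment (horizontal axis), with 1 line per gene. All lines fall from DMSO to sunitinib and several cross between sunitinib and compound 32, where AURKA drops from 37.5 to 22.2 and CDK1 climbs from 15.6 to 40.4.

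The scaling of a library cancels in a ratio of its log2 CPM, apart from a prior count of 2, and 4 ratios were tested across the 3 treatments with an exact permutation test of the F statistic over 1680 arrangements, whose smallest possible p is 0.00357. Pairs of groups were not tested, since 3 libraries against 3 cannot go below 0.1. The 4 ratios were chosen with earlier results of these data known. PLK1 to PLK4, the Polo-like kinases of mitosis and of centrioles, had log2 ratios of 1.84, 1.86 and 1.86 in DMSO. They were 2.20, 2.23 and 2.03 in sunitinib and 0.16, 0.22 and 0.07 in compound 32 libraries. PLK1 counts were thus well above PLK4 counts in DMSO and sunitinib and close to them after compound 32 (exact two-sided permutation p = 0.00357, adjusted over the 4 ratios 0.00714).

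AURKA to AURKB, the Aurora kinases of poles and of centromeres, had log2 ratios of 1.40, 1.32 and 1.395 in DMSO. In sunitinib libraries they were 1.28, 1.40 and 1.499, which overlapped DMSO. In compound 32 libraries they were -0.06, -0.18 and -0.14, so that AURKA counts were below AURKB counts in all 3. The exact permutation p over the treatments was 0.0321 (adjusted 0.0321).

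The ratio of CDK1 to PKMYT1 was highest in sunitinib and lowest in compound 32 libraries. The log2 ratios were 1.86, 1.97 and 1.77 in DMSO, 2.21, 1.98 and 3.15 in sunitinib and 1.68, 1.59 and 1.41 in compound 32 libraries (exact permutation p = 0.00357, adjusted 0.00714). The lowest sunitinib value, 1.98, was just above the highest DMSO value, 1.97. The F statistic was 4.44 here and 365 for AURKA to AURKB, so the exact p-values do not rank the size of the shifts. The third sunitinib library lay far above the others, and without it the adjusted exact permutation p was 0.0190. Leaving out the third compound 32 library gave an adjusted exact permutation p of 0.05, which did not pass.

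BUB1 to BUB1B, which encode related checkpoint proteins, had log2 ratios of 0.97, 0.87 and 0.92 in DMSO, 0.88, 0.82 and 0.93 in sunitinib and 0.46, 0.68 and 0.58 in compound 32 libraries. The DMSO and sunitinib libraries overlapped, and the compound 32 libraries lay below both (exact permutation p = 0.0179, adjusted 0.0238).

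**Figure D4:**
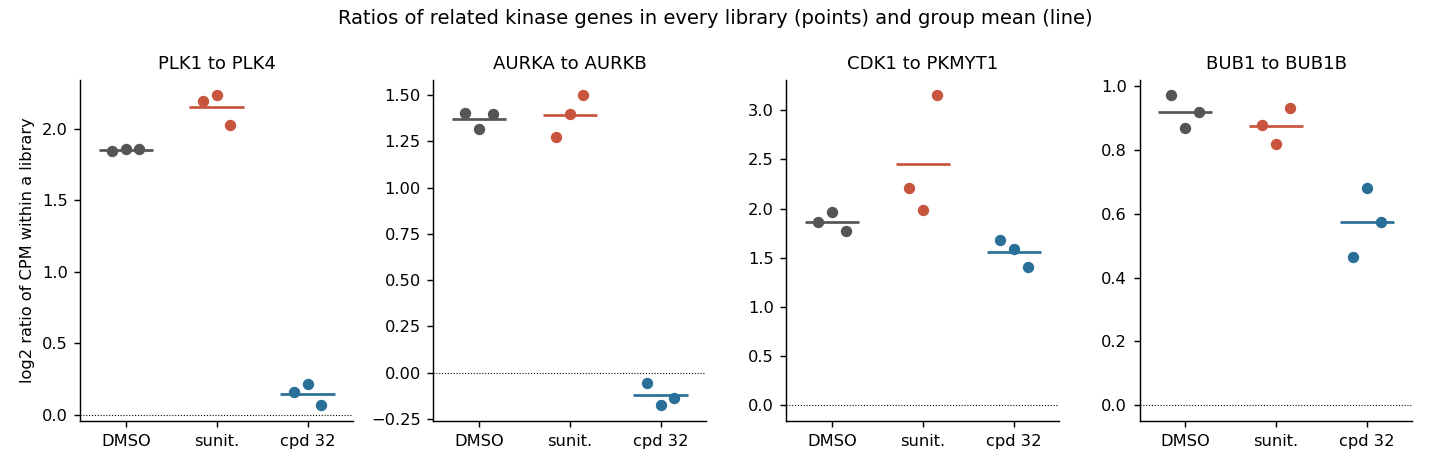
Log2 ratio of CPM of a kinase to that of its partner (vertical axis) within each of the 9 libraries, as points by treatment with a line at the group mean. The PLK1 to PLK4 ratio averaged 1.85 in DMSO and 0.15 in compound 32, and the AURKA to AURKB ratio 1.37 and -0.12.

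The partners of the 10 kinases were read from 9 lists of genes, each described by its counts and its median beside the median of all genes given above. Of all genes, 19.9% were called lower and 20.3% higher after sunitinib (40.2% in all). After compound 32, 10.3% were called lower and 12% higher (22.3% in all). A list count near these shares is not particular to the list. Among the cyclins, Cks subunits and CDC25 phosphatases that work with CDK1, 5 of 8 fell after sunitinib and none was called higher, with a median log2 difference of -0.43. After compound 32, 6 of 8 fell and 1 rose, with a median of -0.68. CDC25A, a phosphatase that activates CDK2 and CDK1, was lower after sunitinib and higher after compound 32, as PKMYT1 was. It averaged 48.6 CPM in DMSO, 11.03 in sunitinib (log2 difference -2.14 ± 0.09, edgeR adjusted p = 2.80e-08) and 83.1 in compound 32 (0.77 ± 0.08, edgeR adjusted p = 3.90e-05). CCNB1, the mitotic cyclin, had 284 CPM in DMSO, 164 in sunitinib (-0.80 ± 0.12, edgeR adjusted p = 3.39e-04) and 72.4 in compound 32 (-1.97 ± 0.13, edgeR adjusted p = 1.29e-06), the order seen for PLK1. CCNA2, the cyclin of S phase and G2, differed by -1.21 after sunitinib and -0.44 after compound 32, and both were called. CDC25B was not called after sunitinib (-0.17, edgeR adjusted p = 0.129) and fell by 1.02 on the log2 scale after compound 32.

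Of 6 cofactors of Aurora A and PLK1, 5 fell and 1 rose after sunitinib (median -0.61), and 4 fell after compound 32 (median -0.60). TPX2, which activates Aurora A on the spindle, differed by -0.80 after sunitinib and -0.76 after compound 32. CKAP5, a microtubule polymerase, differed by -0.59 and -0.70, and TACC3, its Aurora A-dependent partner, by -0.88 and -0.49. All of these were called. AJUBA, an activator of Aurora A, was the 1 that rose after sunitinib (0.75 ± 0.07, edgeR adjusted p = 1.59e-05), and its log2 difference after compound 32 was -0.08 (edgeR adjusted p = 0.523).

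All 6 listed genes of the chromosomal passenger complex and its recruiters fell after sunitinib (median -0.94), and 4 of 6 fell after compound 32 (median -0.55). CDCA8, the borealin subunit of the complex, differed by -0.89 in both comparisons with DMSO. HASPIN, a histone kinase that recruits the complex to centromeres, averaged 26.2 CPM in DMSO and 10.5 after sunitinib (-1.32 ± 0.12, edgeR adjusted p = 7.72e-06). At 24.8 CPM after compound 32 it was not called (-0.08 ± 0.11, edgeR adjusted p = 0.667). SGO2, a shugoshin that protects centromeric cohesion, differed by -0.87 and -0.68 and was called in both.

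Among 11 spindle checkpoint proteins that are not kinases, 9 fell after sunitinib (median -0.60) and only CDC20 was called by edgeR after compound 32 (median -0.11). CDC20, the activator that the checkpoint restrains, had 428 CPM in DMSO, 274 in sunitinib (-0.64 ± 0.07, edgeR adjusted p = 2.06e-05) and 157 in compound 32 (-1.45 ± 0.07, edgeR adjusted p = 1.54e-07). MAD2L1, the checkpoint protein MAD2, had 90.5, 45.9 and 100.2 CPM, a log2 difference of -0.98 after sunitinib and 0.15 after compound 32 (edgeR adjusted p = 0.227). KNTC1, a kinetochore protein of the same pathway, had -0.92 after sunitinib and 0.21 after compound 32 (edgeR adjusted p = 0.0563). Without the third sunitinib library, 7 of the 11 were called after compound 32, 4 lower and 3 higher, while the median stayed at -0.11.

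Centriole duplication factors, which work with PLK4, fell in 5 of 8 cases after sunitinib (median -0.57). After compound 32, 2 rose and 2 fell (median 0.00). STIL, which binds and activates PLK4, was at 113, 55.6 and 116 CPM in DMSO, sunitinib and compound 32, with a log2 difference of -1.02 ± 0.06 after sunitinib (edgeR adjusted p = 4.95e-07) and 0.05 after compound 32 (edgeR adjusted p = 0.659). CEP152, a scaffold for PLK4, differed by -0.77 and 0.32, and CCP110, the centriole cap protein, by -0.54 and 0.56, all called. CEP63, a partner of CEP152, was not called after sunitinib (0.22, edgeR adjusted p = 0.149) and fell by 0.76 on the log2 scale after compound 32.

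Of 9 other mitotic kinases, 6 fell and 2 rose after sunitinib (median -0.64), and 1 fell and 3 rose after compound 32 (median -0.02). WEE1, which shares with PKMYT1 the task of restraining CDK1, had 54.1, 25.1 and 43.6 CPM in DMSO, sunitinib and compound 32. Its log2 difference was -1.11 ± 0.09 after sunitinib (edgeR adjusted p = 2.21e-06) and -0.31 ± 0.08 after compound 32 (edgeR adjusted p = 0.0198), so the inhibitory kinases of CDK1 were called in opposite directions after compound 32. MASTL, the Greatwall kinase that curbs the phosphatase opposing CDK1, fell from 41.9 to 19.9 CPM after sunitinib (-1.08 ± 0.10, edgeR adjusted p = 8.73e-06). It rose to 73.2 CPM after compound 32 (0.80 ± 0.09, edgeR adjusted p = 1.29e-04). MELK differed by -0.86 and 0.22 and NEK7 by -0.22 and 0.31, all called.

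Among relatives of these kinases with other roles, PLK5 and AURKC had at most 1 and 7 counts in a library and were not tested. Of the 3 tested, 1 fell and 1 rose after sunitinib (median -0.09), and 2 rose and 1 fell after compound 32 (median 0.60). CDK2, the kinase of S phase, went from 82.9 CPM in DMSO to 37.2 after sunitinib (-1.16 ± 0.08, edgeR adjusted p = 1.49e-06) and 125 after compound 32 (0.60 ± 0.08, edgeR adjusted p = 3.70e-04). PLK3, a stress-responsive Polo-like kinase, rose in both comparisons, by 0.30 and 0.68 on the log2 scale.

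Of 9 genes for the phosphatases that oppose CDK1 or for regulators of these phosphatases, 5 fell after sunitinib (median -0.31). None was called by edgeR, DESeq2 or limma voom after compound 32 (median 0.04), where 2 had an unadjusted edgeR p under 0.05. Without the third sunitinib library 5 were called, 3 lower and 2 higher. PPP1CC, a catalytic subunit of protein phosphatase 1, differed by -0.84 ± 0.07 after sunitinib (edgeR adjusted p = 4.46e-06) and by -0.14 after compound 32 (edgeR adjusted p = 0.195). ARPP19, the substrate through which MASTL acts, differed by -0.49 and 0.04, PPP2CA by -0.41 and -0.26, and PPP2R2D by -0.03 and -0.20. Of these last 3, ARPP19 and PPP2CA were called after sunitinib.

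Among 14 transcription factors of genes expressed in G2 and mitosis, 10 fell and 2 rose after sunitinib (median -0.50), and 3 fell and 3 rose after compound 32 (median 0.06). MYBL2, which joins the MuvB core on promoters of such genes, averaged 125 CPM in DMSO, 49.5 in sunitinib (-1.33 ± 0.06, edgeR adjusted p = 8.51e-08) and 273 in compound 32 (1.13 ± 0.06, edgeR adjusted p = 4.25e-07). LIN54, the subunit that contacts the CHR, differed by -0.52 ± 0.07 (edgeR adjusted p = 1.76e-04) and 0.43 ± 0.07 (edgeR adjusted p = 0.00117). RBL1, the pocket protein p107, differed by -1.16 ± 0.07 after sunitinib (edgeR adjusted p = 6.26e-07) and 0.09 after compound 32 (edgeR adjusted p = 0.416).

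**Figure D5:**
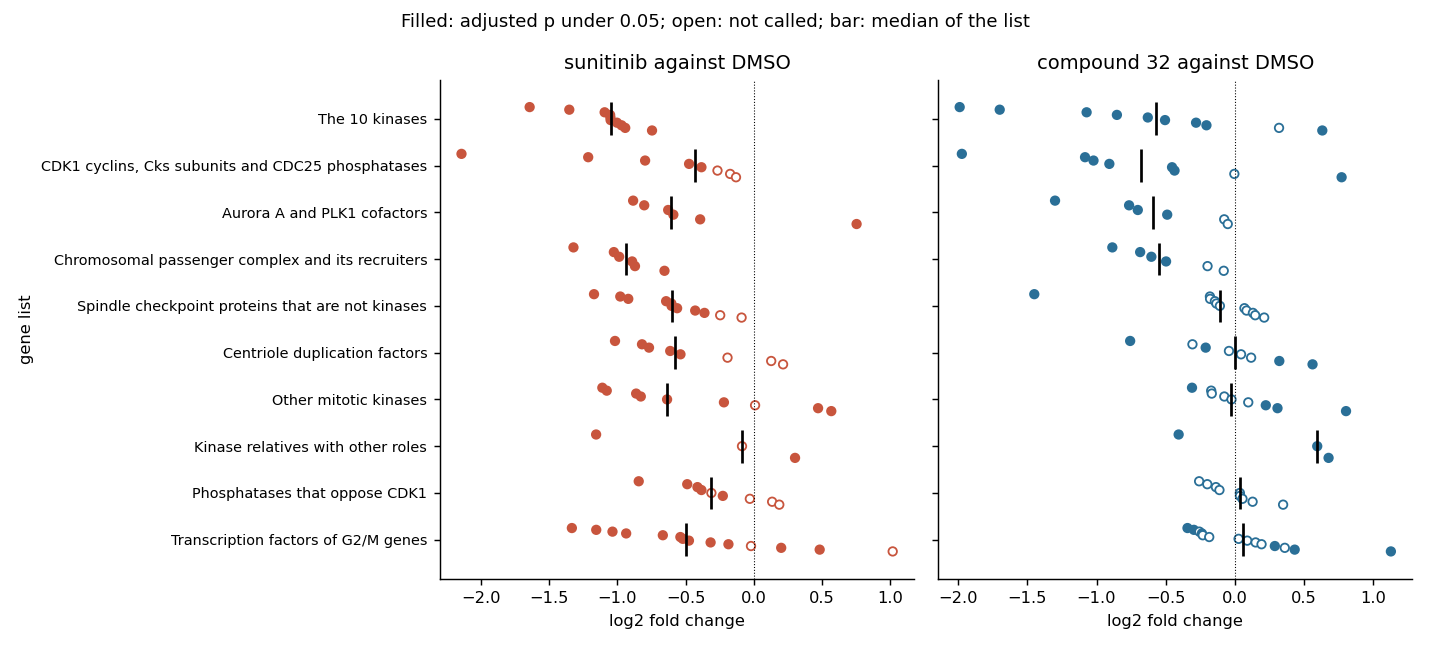
Log2 fold change of every tested gene (points) in the 10 kinases and the 9 lists (rows), for sunitinib against DMSO and compound 32 against DMSO. Filled points have an edgeR adjusted p under 0.05, and a bar marks the list's median. Medians lie below 0 for the kinases and all 9 lists after sunitinib, and from -0.68 to 0.60 after compound 32.

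The lists were also compared directly between compound 32 and sunitinib. Checkpoint proteins were higher after compound 32 than after sunitinib in 9 of 11 cases and lower in 1 (median 0.49). Centriole factors were higher in 5 of 8 and lower in 2 (median 0.75), other mitotic kinases higher in 6 of 9 and lower in 2 (median 0.66) and transcription factors higher in 9 of 14 and lower in 2 (median 0.49). Partners of CDK1 were higher in 2 of 8 and lower in 4 (median -0.25), and cofactors of Aurora A and PLK1 were higher in 2 and lower in 2 of 6 (median -0.04). Passenger complex genes were higher in 3 of 6 (median 0.30), or 5 of 6 without the third sunitinib library. Phosphatases and their regulators were higher in 5 of 9 and lower in 1 (median 0.28), and relatives with other roles higher in 2 of 3 and lower in 1 (median 0.37). Of all genes in this comparison, 24.1% were called higher and 25.2% lower, or 49.2% in all, and several of these list counts lie near those shares. The median of all genes was -0.03.

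Among the kinases themselves, log2 CPM over the 9 libraries rose and fell most closely together for PLK4 and AURKB (Pearson r = 0.995) and for PLK1 and AURKA (r = 0.989). PLK1 and PKMYT1 had r = -0.23. These values mostly compare 3 group means, since the 9 libraries fall into 3 treatments, and carry no test. By the same measure, over 10164 protein-coding genes with a mean of at least 5 CPM, the genes most like each kinase had r from 0.984 to 0.998. They were CASC3, RRS1 and DEPDC1 for PLK1, RRS1, EIF2B5 and UGCG for AURKA, and NOL8, NUCKS1 and COA7 for NEK2. For PLK4 they were WDR5, TOMM40 and CSE1L, and for AURKB EIF4G2, CSE1L and TMPO. For the checkpoint kinases they were RAD21, FAM83D and FOSL1 (BUB1), G3BP1, RACGAP1 and PSME3 (BUB1B), and CKAP2L, KHDRBS1 and PRPF4B (TTK). For the entry switch they were TFAM, GMNN and FBXO5 (CDK1) and MAP3K14, SPATA13 and SCARF2 (PKMYT1).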

How the data were processed

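Per the labels' protocols, mRNA was captured with oligo(dT) beads and cDNA was primed with random hexamers. The deposited values are raw counts of reads per gene, which the authors made with tools that the submitters' processing notes list as fastp, HISAT2 2.0.5, featureCounts, DESeq2 and edgeR, with no roles. The notes list the builds hg38 and mm10. All 58735 gene identifiers had the start and end of GENCODE release 29 on GRCh38. Gene length, another deposited value, was used for CPM per kilobase. No source used here states the strand setting or the handling of multi-mapped reads.

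Counts of all 9 libraries were fitted with edgeR 4.0.16 in R 4.3.3 (filterByExpr, TMM factors of 0.983 to 1.051, robust quasi-likelihood F test, 6 residual degrees of freedom, Benjamini-Hochberg adjustment over 15232 genes, called under 0.05). CPM values divide counts by library totals times these factors. Within-library ratios were taken from log2 CPM with a prior count of 2. Alternatives were other scalings and filters, DESeq2 1.42.0, limma voom 3.58.1, a replicate block, only the 6 libraries compared, an adjusted p under 0.01 and leaving out each library. The kinases, lists and tests were chosen with earlier results of these data known. Beside the 10 kinases, the text names 2 genes per list with the smallest p in each comparison with DMSO, and for each kinase the 3 genes most like it.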

Additional observations from a re-analysis of the deposited data

How the results depend on the processing

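Over 19 alternatives for each comparison, the sign of every one of the 10 kinases was kept in all 570 results, counted per kinase, comparison and alternative. Of these, 548 kept their side of the threshold, with 19 lost calls and 3 gained. Kinases in the same alternative share a fit, so these results are not independent. The alternative with an adjusted p under 0.01 reuses the main fit, so its signs could not differ. Sunitinib lowered 10 of 10 kinases under all 19 alternatives. For compound 32 against DMSO the called kinases ranged from 7 to 10 and against sunitinib from 9 to 10. AURKB after compound 32 lost its call in 9 alternatives (edgeR, DESeq2 or limma adjusted p up to 0.133), PLK4 in 4 (up to 0.0795), and NEK2 against sunitinib in 5 (up to 0.0992). CDK1 after compound 32 gained a call without the filter on low counts (edgeR adjusted p = 0.00342), with only the 6 libraries compared (1.19e-07) and without the third sunitinib library (5.21e-08). The cause was not tested.

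Of all genes, 3948 instead of 6126 were called for sunitinib against DMSO at an edgeR adjusted p under 0.01. For compound 32 against DMSO, 1715 instead of 3401 were called at that level and 6372 with only the 6 libraries compared. Leaving out each library in turn gave 2136 to 6548, the highest without the third sunitinib library, 2241, 2240 and 2136 without a DMSO library, and 2214, 2226 and 2145 without a compound 32 library. The cause was not tested.

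The replicate numbers did not pair the libraries: deviations of same-numbered libraries from their group means correlated at -0.0769 to 0.0609, and 4 of 18 comparisons had the highest correlation with the same number. With the replicate block, 10, 8 and 10 kinases were called for sunitinib against DMSO, compound 32 against DMSO and compound 32 against sunitinib, the lost one being AURKB (edgeR adjusted p = 0.0707), and 5758, 2878 and 7174 genes in all. Permuting only within a replicate block, where the smallest exact p is 0.0278, gave adjusted exact p of 0.0556 for PLK1 to PLK4, 0.111 for AURKA to AURKB, 0.0556 for CDK1 to PKMYT1 and 0.0741 for BUB1 to BUB1B, none of which passed. Before adjustment, PLK1 to PLK4 and CDK1 to PKMYT1 were at that smallest exact p, so this setting could not have given either a lower one. Leaving out each library gave adjusted exact permutation p of 0.00714 to 0.05 for CDK1 to PKMYT1, the highest without the third compound 32 library, and at most 0.0429 for the other 3 ratios.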
